A study of Mus musculus with 8 samples.

Results

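Stellate cells of the adult mouse liver were set against mesenchymal stem cells (MSCs) of mouse bone marrow, on 1 one-colour Agilent expression array each. A level is the log2 of a probe's processed signal minus the log2 of the 75th percentile of its own array, so 0 is the 75th percentile and 1 unit is a doubling. Genes were compared where the array with the brighter signal measured them well above background, which held for 14524 of 20140 genes with a named probe and a value on both arrays.

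The array labelled Adult HSCs (here HSC means hepatic stellate cell) held RNA of adult liver cells sorted as positive for vitamin A. The array labelled MSCs held RNA of adult bone marrow cells described only as purified. A pair of arrays that shares no sample with these 2 served as a second reading: P1, p75NTR-positive cells sorted from newborn liver and negative for the blood cell markers CD45 and Ter119, and MEFs, fibroblasts of embryonic skin grown in culture. The series has 8 arrays in all, the other 4 being cells sorted in the same way from fetal liver, taken on embryonic days E11.5 and E13.5 as well as E14.5 and E17.5. Strain, sex, genotype, the exact age of the adult mice, the number of animals per array and whether the MSCs had been cultured are not given in the sources used here. With 1 array a group there was no replicate, so no difference below has an error or a test, and organ, sort, handling and single sample cannot be told apart. In bulk RNA, fewer cells of a type and less RNA per cell cannot be told apart either.

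Hepatic stellate cells are the pericytes of the liver sinusoid. They store vitamin A as retinyl esters in lipid droplets, and after injury they become contractile, matrix-depositing myofibroblasts. Marrow MSCs are stromal cells that can form bone, cartilage and fat in culture, and the marrow stroma holds blood stem cells in place with factors such as CXCL12 and stem cell factor.

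The 2 arrays lay on one slide. Their 75th percentile signals were 275 for Adult HSC and 373 for MSC, within the range of 226 to 373 over the 8 arrays. Probes well above background made up 58.2% on the Adult HSC array and 61.4% on the MSC array, and 0 spots were saturated on either. Over the probes well above background on all 8 arrays, the levels of Adult HSC and MSC correlated with Pearson's r = 0.74, the lowest of all pairs of arrays. Adult HSC correlated at 0.90 with E17.5 and at 0.89 with P1, and MSC at 0.90 with MEF. These correlations are across probes, which are not independent replicates, and they share each array's normalisation.

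A gene was called different where the 2 levels were at least 4-fold apart, that is 2 units on the log2 scale. By this rule 2289 genes, or 15.8% of those compared, were higher in Adult HSC, and 2014 genes, or 13.9%, were lower, which makes 29.6% at least 4-fold apart. The counts of each gene list below are to be read beside these shares. At least 16-fold apart were 1104 genes higher and 702 genes lower in Adult HSC. On the dimmer array 879 of the higher and 810 of the lower genes were not well above background. Their fold is given as "at least", against the weakest signal that array could still measure or the gene's own signal, whichever was stronger. At that bound, 2096 higher and 1695 lower genes were still at least 4-fold apart. The median difference over all genes compared was -0.09. Of the 2289 higher genes, 1497 (65.4%) had their highest level of the 8 arrays on Adult HSC, and of the 2014 lower genes, 1274 (63.3%) had it on MSC. The choice of these genes raises both shares; over all 14524 genes compared they were 24.3% on Adult HSC and 28.6% on MSC.

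**Figure D1:**
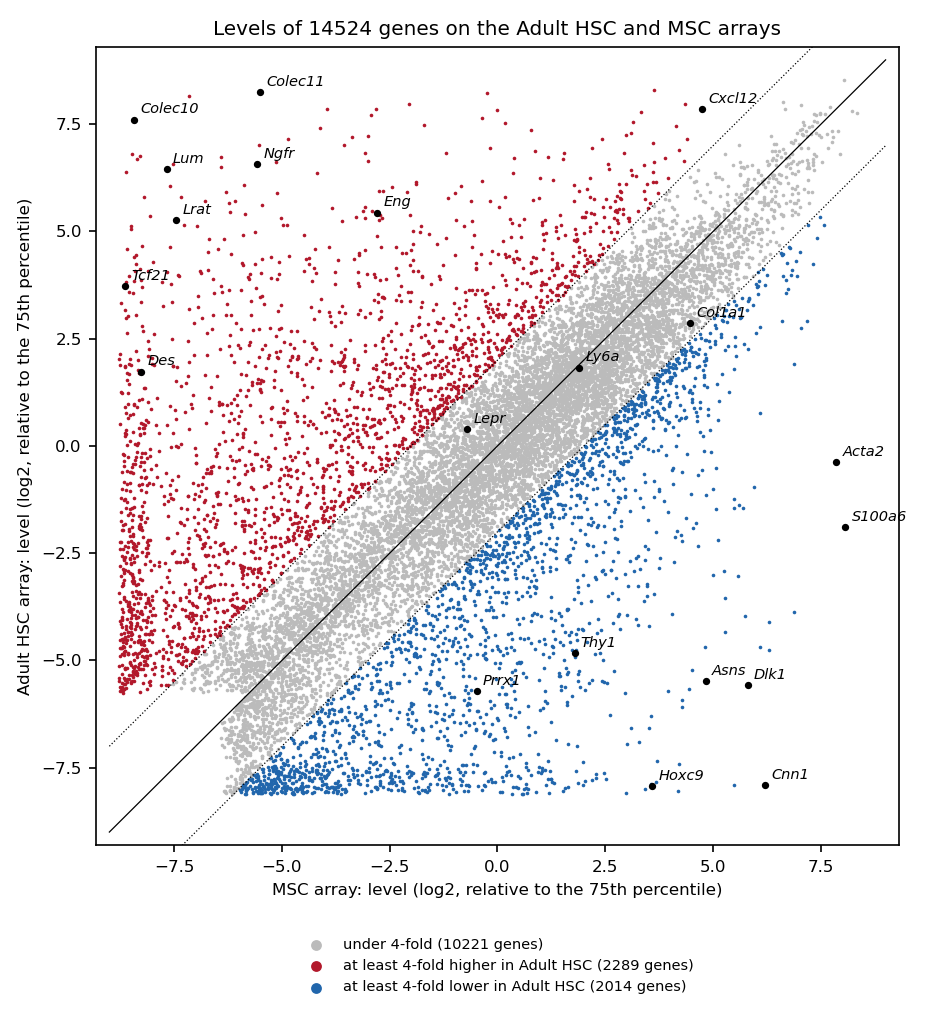
Each point is 1 of the 14524 genes compared, with its level on the MSC array on the horizontal axis and on the Adult HSC array on the vertical axis, both in log2 units relative to the array's 75th percentile. The solid line marks equal levels and the dotted lines a 4-fold difference; 2289 genes lie above the upper dotted line and 2014 below the lower one, and genes near the left and bottom edges were not well above background on 1 array.

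Among genes measured on both arrays, the one farthest above MSC was Colec11, which encodes a secreted collectin of the complement lectin pathway. Its level was 8.24 on the Adult HSC array and -5.50 on the MSC array, a 13730-fold difference. Pth1r, the receptor for parathyroid hormone, stood at 7.01 on the Adult HSC array and -5.53 on the MSC array (5951-fold higher in Adult HSC). Lama1, a laminin chain of basement membranes, had 5.93 on the Adult HSC array and -6.29 on the MSC array (4745-fold higher). Rarres2, which encodes the adipokine chemerin, reached 7.16 in Adult HSC against -4.87 in MSC. Hsd11b1, the enzyme that regenerates active glucocorticoid, reached 6.09 in Adult HSC against -5.87 in MSC. The other 10 of the 15 highest were Ngfr, Ednra, Plvap, Sparcl1, Serping1, Wfdc1, C2, Mapt, Ano1 and Tgfbi, with differences of 10.69 for Tgfbi up to 12.14 for Ngfr. The weakest level well above background on the MSC array was -6.43. Several of these genes lay near it there, so their folds and order are imprecise.

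Some genes bright in Adult HSC were not well above background on the MSC array at all. Colec10, a second collectin, stood at 7.61 in Adult HSC and was at least 16818-fold higher than in MSC. Gdf2, which encodes the ligand BMP9, stood at 6.75 and was at least 9297-fold higher. Next by bound were Ifitm1, Fcna, Septin4, Gpat2, Lum, Abcc9, Agtr1a and Rgs5, with the smallest bound for Rgs5 (at least 4845-fold higher). On the MEF array all of these except Gdf2 were well above background.

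On the other side, Dlk1, an imprinted gene for a Notch-related transmembrane protein of fetal and progenitor cells, was farthest below MSC among genes measured on both arrays. Its level was -5.57 on the Adult HSC array and 5.80 on the MSC array, so it was 2655-fold lower in Adult HSC. Dlk1 lay between 7.50 and 7.85 on the 4 fetal arrays and at 7.67 on P1, so the adult liver array was the one at which it was low. Igfbp6, which encodes a binding protein for insulin-like growth factor 2, had -4.69 on the Adult HSC array and 6.09 on the MSC array (1765-fold lower). Cdkn2a, which encodes the cell cycle inhibitors p16 and p19ARF, had -3.02 on the Adult HSC array and 5.58 on the MSC array (388-fold lower), and its level was 0.97 on the MEF array. Also among the 15 lowest were Fbln2, S100a4, Asns, Slc38a1, S100a6, Epb41l3, Phgdh, Lgals3, Ltbp2, Flnc and Acta2. The weakest level well above background on the Adult HSC array was -5.80. Dlk1, Asns and Slc38a1 lay near it there, so their folds are imprecise.

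Of the genes not well above background in Adult HSC, Cnn1, the smooth muscle protein calponin, lay farthest below. It stood at 6.21 in MSC and was at least 4101-fold lower in Adult HSC. Cpe, a prohormone-processing carboxypeptidase, was at least 2471-fold lower by the probe used. The differences of its 3 probes ran from -13.38 to -6.44. They were followed by H1f5, Pcdh19, Ankrd1, Vgf, Mgp, Cd24a, Hoxc9 and Lox, with the smallest bound for Lox (at least 658-fold lower).

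**Figure D2:**
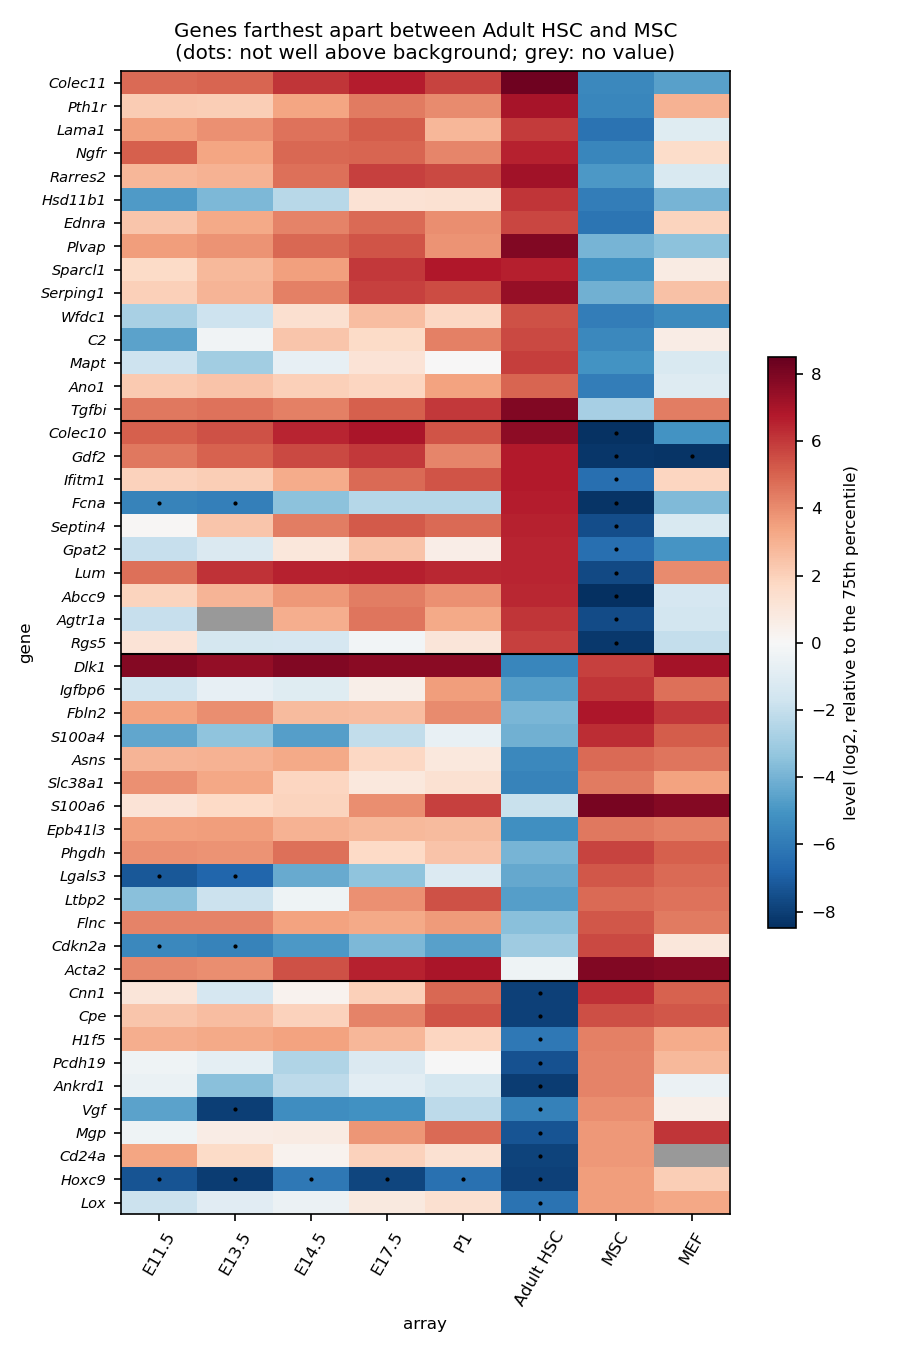
Colours give the log2 level of genes (rows) on the 8 arrays (columns), drawn in 4 blocks from the 15 highest and 15 lowest differences measured on both arrays and the 10 largest bounds on either side; a dot marks a level not well above background and grey a missing value. The genes of the upper blocks are red on Adult HSC and blue on MSC, and those of the lower blocks the other way round. Several genes of the lower blocks, among them Dlk1, Acta2, Flnc and Epb41l3, are red on every array except Adult HSC.

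Marker genes of stellate cells were checked first, since they bear on the label. The list was chosen with earlier results of these data known, so it is not an independent check of the label. Of 20 on the list, Prelp had no named probe and Bambi was not well above background on its brighter array. All 18 others were at least 4-fold higher in Adult HSC, with a median difference of 12.28, or 11.75 with dim values at their bound. The smallest of these differences was 4.67. Lrat, the enzyme that esterifies retinol for storage, had 5.26 on the Adult HSC array and -7.45 on the MSC array, where it was not well above background (at least 3316-fold higher). Des, the intermediate filament protein desmin, stood at 1.73 on the Adult HSC array and -8.26 on the MSC array (at least 287-fold higher). Ngfr, the p75NTR receptor by which the fetal and newborn cells were sorted, had 6.57 on the Adult HSC array and -5.57 on the MSC array (4523-fold higher). Fcna, a ficolin of the lectin pathway, had 6.70 on Adult HSC, against -2.44 on E17.5 and -2.41 on P1. Rgs5, a G-protein regulator used as a pericyte marker, stood at 5.81 on the Adult HSC array and -8.19 on the MSC array (at least 4845-fold higher). Vipr1, the receptor for vasoactive intestinal peptide, had 8.16 on the Adult HSC array and -7.15 on the MSC array. No fold is given for Vipr1 because a different Vipr1 probe passed the background flag on MSC. All 18 genes had their highest level of the 8 arrays on Adult HSC.

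Marrow stromal markers were checked in the same way on the MSC array. All 20 were well above background there, and 16 of them also in Adult HSC. They did not fall to one side: 5 were at least 4-fold higher in Adult HSC, 7 lower and 8 neither. The stem cell antigen gene Ly6a had 1.83 on the Adult HSC array and 1.89 on the MSC array, a difference of -0.07. Lepr, the leptin receptor that marks perivascular marrow stroma, had 0.39 on the Adult HSC array and -0.70 on the MSC array, with probes of the gene that differed in sign. Eng, a TGF-beta co-receptor, had 5.44 on the Adult HSC array and -2.78 on the MSC array (299-fold higher in Adult HSC), and Nt5e, the ecto-5'-nucleotidase CD73, had 3.79 on the Adult HSC array and -3.23 on the MSC array (130-fold higher). Both are among the surface proteins by which cultured MSCs are commonly defined. Thy1, another such surface protein, went the other way, with -4.83 on the Adult HSC array and 1.79 on the MSC array (98.2-fold lower). Lower in Adult HSC were Ebf3 (at least 204-fold), a transcription factor of marrow stroma, Grem1 (at least 269-fold), a secreted BMP antagonist, and Cd34 (285-fold), a sialomucin of blood progenitors, vessels and some fibroblasts. The summed level of the list was 7.17 in Adult HSC and 6.56 in MSC.

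Transcription factors of liver mesenchyme were higher in Adult HSC for 15 of the 18 on the list and lower for 0, with a median difference of 5.50. Tcf21, which encodes a transcription factor of the mesenchyme around inner organs, had 3.73 on the Adult HSC array and -8.63 on the MSC array (at least 1141-fold higher). Lhx2, a LIM homeobox factor of stellate cell development, had 5.95 on the Adult HSC array and -2.66 on the MSC array (388-fold higher). Hand2, Heyl, Nr1h4 (the bile acid receptor FXR) and its relative Nr1h5 were at 3.97, 3.05, 5.72 and 4.46 in Adult HSC and not well above background in MSC, with bounds from at least 713-fold for Heyl to at least 4536-fold for Nr1h4. The 3 factors under 4-fold were Gata6, Nr2f2 and Irf2, with differences of 1.75, 0.69 and 0.99 (chosen after their values were seen).

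Hox genes were read by paralog number, since these numbers follow the position of each gene in its cluster and, in the embryo, the order of expression from head to tail. Of 39 genes, 28 could be compared. Of paralogs 1 to 5, 12 were compared: 3 were higher in Adult HSC, 2 lower and 7 neither, with a median difference of 0.93. Of paralogs 6 to 13, 16 were compared: 0 were higher, 14 lower and 2 neither, with a median of -5.19. The higher ones were Hoxa2 (11.4-fold), Hoxb4 (7.34-fold) and Hoxd4 (at least 3.07-fold), the last not well above background in MSC and under 4-fold at its bound. The median over all Hox genes compared, -3.54, turned positive when genes not well above background on an array were left out or when no filter was used.

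Within the HoxB cluster the turn fell between Hoxb5 and Hoxb6. Hoxb4 had 2.66 on the Adult HSC array and -0.21 on the MSC array, and Hoxb5 had -0.39 on the Adult HSC array and -1.37 on the MSC array. Hoxb6 had -2.84 on the Adult HSC array and 1.04 on the MSC array, and Hoxb7 had -1.38 on the Adult HSC array and 1.82 on the MSC array. Hoxb9 stood at 3.56 in MSC and was at least 653-fold lower in Adult HSC. In the HoxA cluster Hoxa5 had -0.53 on the Adult HSC array and -1.39 on the MSC array, Hoxa7 -5.46 on the Adult HSC array and 0.95 on the MSC array and Hoxa10 -7.84 on the Adult HSC array and -0.05 on the MSC array. The HoxC cluster differed from both in that its first genes were lower too. Hoxc4 had -4.86 on the Adult HSC array and 1.05 on the MSC array, and Hoxc5 had -7.61 on the Adult HSC array and -1.39 on the MSC array. Hoxc9 (at least 666-fold lower) and Hoxc10 (at least 164-fold lower) were not well above background in Adult HSC. Of the 9 HoxC genes compared, 2 were above background in Adult HSC and 9 in MSC. In the HoxD cluster 2 of 9 genes could be compared, Hoxd4 and Hoxd8, and neither was well above background in MSC.

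**Figure D3:**
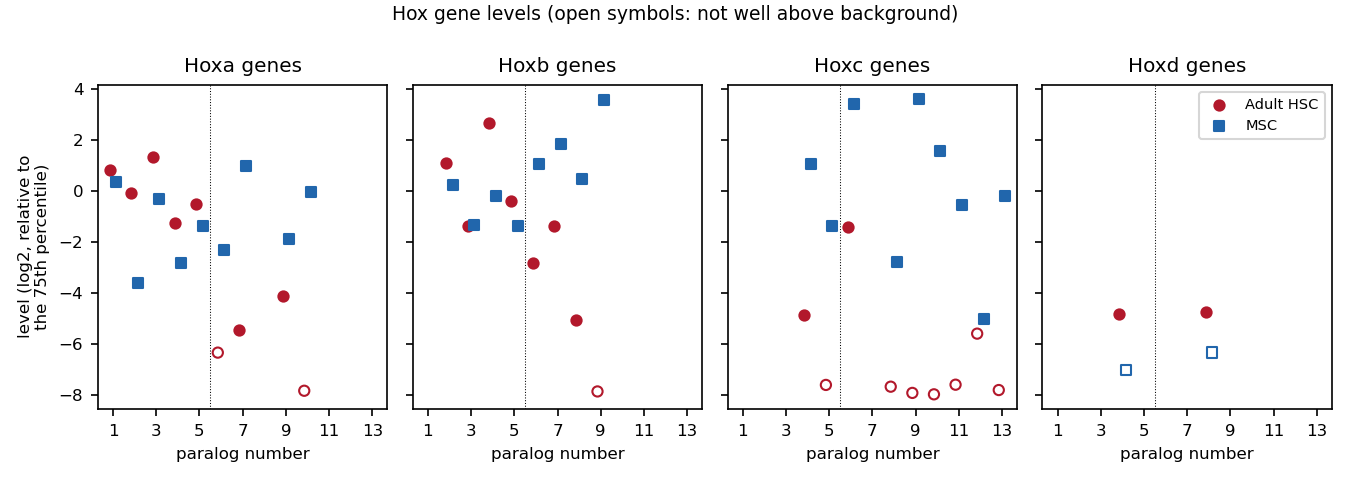
Levels in log2 units relative to the 75th percentile of the 28 Hox genes compared, by cluster (panels) and paralog number (horizontal axis), for Adult HSC (circles) and MSC (squares), with open symbols for levels not well above background and a dotted line between paralogs 5 and 6. Left of the line the circles of the HoxA and HoxB panels lie near or above the squares, and right of it the squares lie above the circles in the HoxA, HoxB and HoxC panels.

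Transcription factors of limb, skin and skeleton were lower in Adult HSC for 12 of 19 compared, 11 of them also at the bound, and higher for 2. The higher ones were Dlx6 and Barx1 (chosen after their values were seen), of which 0 stayed 4-fold apart at the bound. Prrx1, a homeobox factor of limb mesenchyme, had -5.72 on the Adult HSC array and -0.48 on the MSC array (at least 37.6-fold lower). Prrx2 (at least 635-fold lower), the T-box factor Tbx15 (at least 125-fold), Osr1 (at least 114-fold) and Foxd1 (at least 34.5-fold) were all not well above background in Adult HSC.

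Vitamin A genes are part of how the Adult HSC cells were sorted, so their levels there are a check of the sort more than a result. Of 19 retinoid genes compared, 9 were higher in Adult HSC (7 at the bound) and 1 lower. Among enzymes that act on retinaldehyde, Dhrs3, which reduces it to retinol, was 118-fold higher, and Aldh1a1 and Aldh1a3, which oxidise it to retinoic acid, were 75.3-fold and at least 311-fold higher. Aldh1a2, of the same family, was under 4-fold apart (chosen after its values were seen). It had -5.96 on the Adult HSC array, not well above background, and -5.58 on the MSC array. Crabp1, a retinoic acid-binding protein, was the lower one, not well above background in Adult HSC and at least 70.8-fold lower.

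Lipid droplet genes were under 4-fold apart for 9 of 14. The higher ones were G0s2 (870-fold), an inhibitor of the triglyceride lipase ATGL, Mgll (203-fold by the probe used), which encodes monoglyceride lipase, the droplet coat gene Plin2 (8.05-fold) and Plin1 (at least 2.68-fold). The lowest difference among the 4 probes of Mgll was 1.92, which is under 4-fold. Plin4 was 4.58-fold lower. Plin2 had levels of 4.79 on the Adult HSC array and 1.78 on the MSC array.

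Of 12 factors that support blood stem cells, 6 were higher in Adult HSC and 2 lower. Cxcl12, the chemokine that retains blood stem cells in the marrow, had 7.86 on the Adult HSC array and 4.74 on the MSC array (8.70-fold higher in Adult HSC). Vcam1, an adhesion molecule of the niche, had 4.49 on the Adult HSC array and 1.27 on the MSC array (9.33-fold higher). Angpt1, the Tie2 ligand angiopoietin 1, was 24.4-fold higher. Bmp4 had a difference of 5.70 by the probe used and of 1.01 by its other probe, which is under 4-fold. The lower ones were Dlk1, given above, and Spp1, the matrix protein osteopontin, which stood at 0.35 in MSC and was at least 70.6-fold lower. Kitl, which encodes stem cell factor, was under 4-fold apart at -1.68 on the Adult HSC array and -2.25 on the MSC array (chosen after its values were seen).

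Genes of the bone, cartilage and fat lineages were on both sides, on short lists, beside 15.8% higher and 13.9% lower over all genes compared. Osteogenic genes were lower in Adult HSC for 5 of 10 compared and higher for 1, with 3 lower at the bound. Runx2, the master regulator of bone, had -7.28 on the Adult HSC array and -2.47 on the MSC array, with probes that differed in sign, and Sp7, Ibsp and Dmp1 were not well above background on either array. Alpl, alkaline phosphatase, was the higher one, with 1.90 on the Adult HSC array and -4.44 on the MSC array (81.2-fold). Chondrogenic genes were lower for 4 of 8 (2 at the bound) and higher for 2. Sox9, a regulator of cartilage, had -5.16 on the Adult HSC array and -1.81 on the MSC array (10.2-fold lower). Adipogenic genes were higher for 3 of 8 (2 at the bound) and lower for 2. Pparg, the main regulator of fat cell formation, was lower at -3.94 on the Adult HSC array and 0.80 on the MSC array (26.7-fold), as was Klf5 (at least 169-fold), while Cebpd was higher at 6.58 on the Adult HSC array and 2.56 on the MSC array (16.3-fold). The median differences of the osteogenic and chondrogenic lists, -2.53 and -1.93, turned positive under other treatments of dim genes.

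Basement membrane genes were higher in Adult HSC for 8 of 16 compared, and lower for 2. The laminin chains Lama1, Lama2, Lama4 and Lamb1 were among the higher ones. Lama4 was dim at -4.30 on the Adult HSC array and not well above background in MSC (at least 4.39-fold higher). On the fetal and P1 arrays it lay between -0.88 and 2.40, above Adult HSC. Lamb1 had 6.43 on the Adult HSC array and 3.09 on the MSC array (10.1-fold), and Lama2 had 1.97 on the Adult HSC array and -1.32 on the MSC array (9.82-fold). The lower ones were the collagen IV chain Col4a5 (at least 73.0-fold) and nephronectin, Npnt (at least 6.99-fold). Of 7 small leucine-rich proteoglycans, which bind and space collagen fibrils, 4 were higher and 1 lower. Lumican, Lum, stood at 6.46 in Adult HSC and was not well above background in MSC (at least 7576-fold higher). Decorin, Dcn, had 7.64 on the Adult HSC array and -0.36 on the MSC array (255-fold higher), and podocan, Podn, had 2.86 on the Adult HSC array and -6.07 on the MSC array (489-fold higher). Fibromodulin, Fmod, was the lower one (14.1-fold).

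Fibrillar collagen and scar matrix genes went both ways, with 4 of 21 higher, 5 lower and a median difference of 0.45, beside 15.8% higher and 13.9% lower over all genes compared. Col1a1, a chain of type I collagen, had 2.87 on the Adult HSC array and 4.46 on the MSC array, which is under 4-fold. Postn, the matricellular protein periostin, was higher at 3.55 on the Adult HSC array and -2.77 on the MSC array (80.2-fold). Eln, elastin, had -2.13 on the Adult HSC array and -5.45 on the MSC array. Lower in Adult HSC were the crosslinking enzyme gene Lox (at least 658-fold), Thbs1, thrombospondin 1 (11.2-fold), and Timp1, an inhibitor of matrix metalloproteases, which had -1.24 on the Adult HSC array and 5.49 on the MSC array (106-fold).

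Contractile genes were lower in Adult HSC for 6 of 13 and higher for 3. Acta2, smooth muscle actin and the usual sign of an activated stellate cell, had -0.37 on the Adult HSC array and 7.86 on the MSC array (301-fold lower). On the other 6 arrays Acta2 lay between 3.96 on E13.5 and 7.76 on MEF, so Adult HSC had the lowest level of all. Actg2, enteric smooth muscle actin, was at least 171-fold lower. Tpm1 was 13.9-fold lower by the probe used, the one with the highest mean over the 8 arrays, though its probes differed in sign. Higher in Adult HSC were Mylk, the myosin light chain kinase, with 3.28 on the Adult HSC array and -5.03 on the MSC array (318-fold), and Myh11, smooth muscle myosin, with -1.03 on the Adult HSC array and -7.46 on the MSC array (at least 42.3-fold). The third was Smtn, smoothelin (5.63-fold, chosen after its values were seen). Under 4-fold apart were 4 genes, Tagln, Myl9, Cald1 and Lmod1 (also chosen after their values were seen). Tagln had 5.41 on the Adult HSC array and 6.98 on the MSC array. Myl9 had 6.04 on the Adult HSC array and 6.21 on the MSC array.

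Receptors for vasoactive agents and hormones, with the channels and enzymes they act through, were higher in Adult HSC for 12 of 19, with a median difference of 9.56. Lower were 4, of which 1 was still 4-fold apart at the bound. Agtr1a, the angiotensin II receptor, stood at 6.06 in Adult HSC (at least 5758-fold higher), and Ednra, the endothelin receptor A, at 5.65 against -6.23 in MSC (3779-fold higher). The 2 subunits of soluble guanylate cyclase, the nitric oxide receptor, were both higher in Adult HSC, with Gucy1a1 at 5.15 (at least 3071-fold higher) and Gucy1b1 at 5.35 (at least 3527-fold higher). Abcc9, the sulfonylurea receptor of the vascular potassium channel, stood at 6.38 (at least 7160-fold higher).

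**Figure D4:**
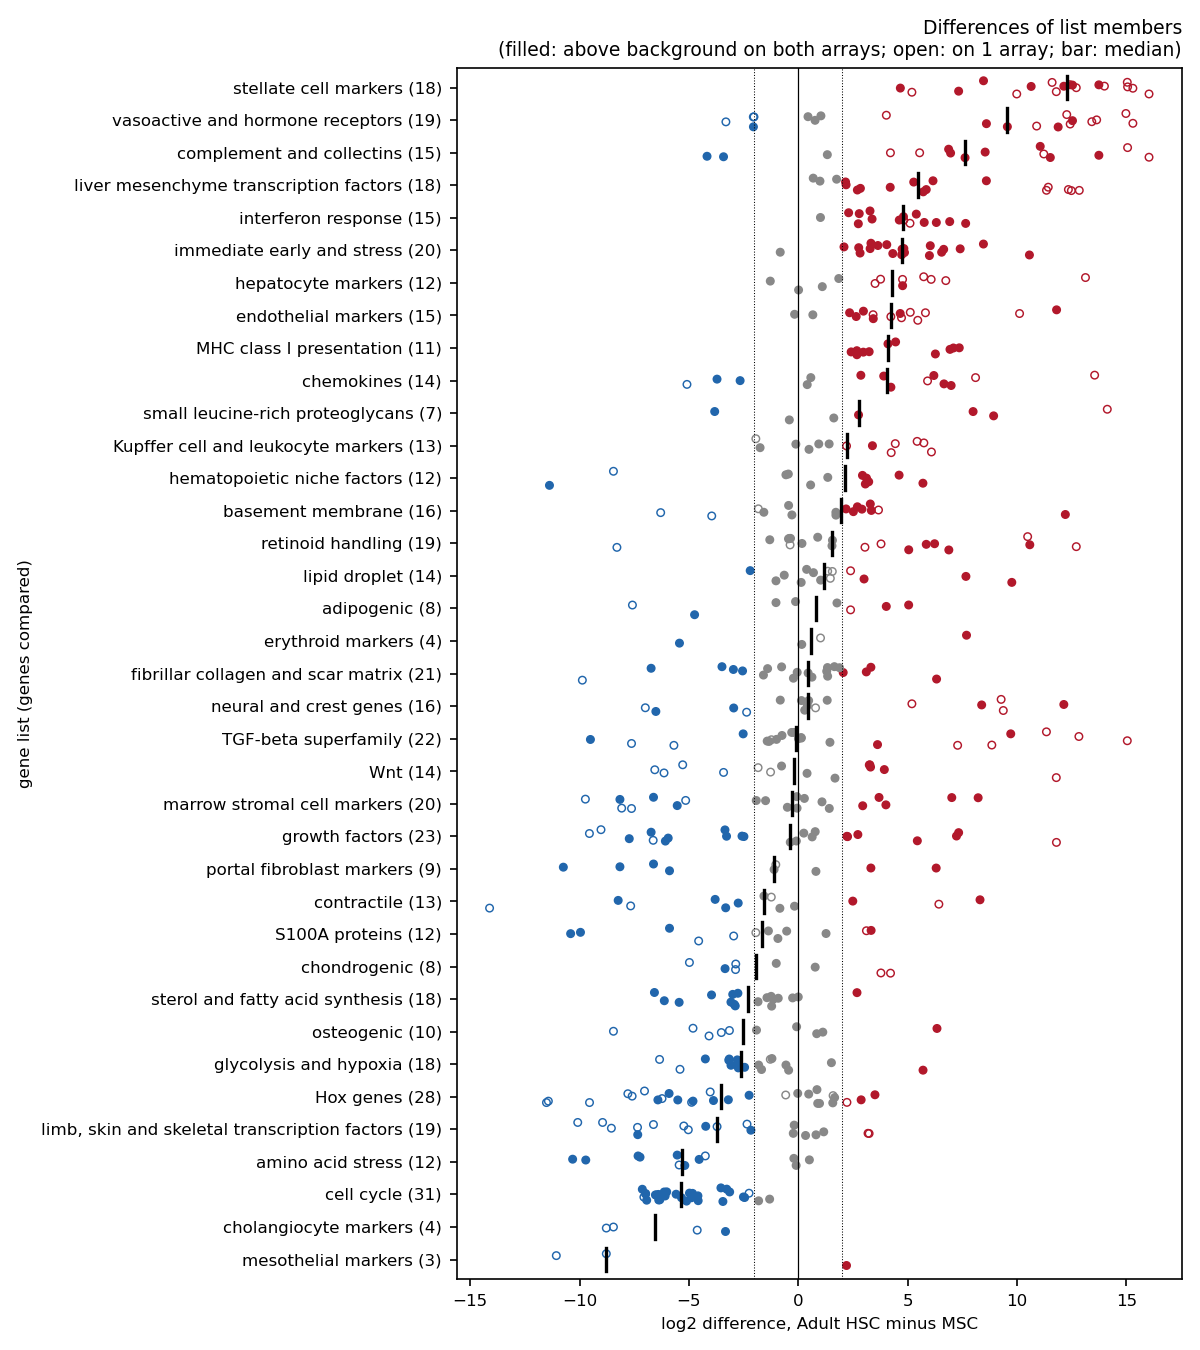
Each point is a list member, with its log2 difference, Adult HSC minus MSC, on the horizontal axis and the 37 lists on the vertical axis in order of their median (bar), the number of genes compared in brackets. Filled points were above background on both arrays and open points on 1, colours mark 4-fold calls, and stellate cell markers stand at the top with a median of 12.28 while cell cycle genes have one of -5.34.

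Ligands of the TGF-beta superfamily were higher for 7 of 22 and lower for 4. Beside Gdf2, Bmp2 had 3.93 on the Adult HSC array and -5.79 on the MSC array (841-fold higher), Bmp5 stood at 3.78 (at least 1188-fold higher) and Gdf10 at 4.41 (at least 1828-fold higher). Ltbp2, a microfibril protein of the latent TGF-beta binding family, had -4.68 on the Adult HSC array and 4.82 on the MSC array (725-fold lower). Among Wnt genes, 5 of 14 were higher and 4 lower, and the R-spondins, which amplify Wnt signals, went opposite ways. Rspo3 stood at 5.72 in Adult HSC (at least 3563-fold higher), while Rspo2 stood at -0.62 in MSC (at least 36.1-fold lower). Of 23 growth factors, 7 were higher and 11 lower. Hgf, the hepatocyte growth factor, had 4.64 on the Adult HSC array and -2.69 on the MSC array (161-fold higher). The neurotrophins split as well, with Ntf3 at 3.16 in Adult HSC (at least 772-fold higher) and Bdnf at -5.69 on the Adult HSC array and 2.04 on the MSC array (212-fold lower). Pdgfc (at least 158-fold) and pleiotrophin, Ptn (at least 120-fold), were lower in Adult HSC.

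Complement and collectin genes were higher in Adult HSC for 12 of 15 and lower for 2, with a median difference of 7.63. Serping1, the C1 inhibitor, had 7.41 on the Adult HSC array and -4.11 on the MSC array (2948-fold higher). C2, a component of the classical and lectin pathways, had 5.61 on the Adult HSC array and -5.45 on the MSC array (2141-fold higher), and Cfb, factor B of the alternative pathway, stood at 4.53 (at least 1989-fold higher). Of 14 chemokines, 9 were higher and 3 lower. Cxcl10, induced by interferon, had 4.64 on the Adult HSC array and -2.35 on the MSC array (127-fold higher). Cxcl14 stood at 5.06 in Adult HSC and was at least 2878-fold higher, Ccl19 had 2.34 on the Adult HSC array and -3.86 on the MSC array (73.5-fold higher), and Cxcl16 had 2.03 on the Adult HSC array and -4.64 on the MSC array (101-fold higher).

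Interferon response genes were higher in Adult HSC for 14 of 15 and lower for 0, with a median difference of 4.81. Ifit3, which encodes an antiviral RNA-binding partner protein, had 4.44 on the Adult HSC array and -3.21 on the MSC array (201-fold higher). Usp18, a brake on interferon signalling, had 1.84 on the Adult HSC array and -3.56 on the MSC array (42.2-fold higher), and the GTPase gene Gbp2 had 3.08 on the Adult HSC array and -3.23 on the MSC array (79.5-fold higher). The 11 genes of MHC class I presentation were all at least 4-fold higher, by a median of 4.10. H2-D1, a classical class I heavy chain, had 7.53 on the Adult HSC array and 0.17 on the MSC array (165-fold higher). Nlrc5, the activator of class I transcription, had 1.41 on the Adult HSC array and -5.68 on the MSC array (137-fold higher), though the difference of its other probe, 1.51, was under 4-fold. The immunoproteasome subunits Psmb8 and Psmb9 were 123-fold and 77.2-fold higher. B2m, the class I light chain, had 6.90 on the Adult HSC array and 4.22 on the MSC array (6.42-fold higher, chosen for its promoter after its values were seen). The summed level of the class I genes was 9.50 on Adult HSC and 5.57 on MSC, and on the other 6 arrays it lay between 3.55 on E11.5 and 5.88 on E17.5. Adult HSC had the highest sum of the 8 arrays, and MSC lay within the range of the rest. H2-K1, H2-D1 and H2-T23 are close relatives, so a probe of one may read another, which was not tested.

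The interferon response element is a DNA sequence bound by interferon-activated factors, and the promoters of Ifit3 and B2m are shown because they hold its letters. It was searched on both strands as a pair of GAAA runs with any 2 bases between them, in RefSeq promoter windows of GRCm38.p6 that run from 250 bases before to 50 bases after a start. It was found in 7 of 14 windows of the interferon list and in 2 of 10 of the class I list, against 3.44% of all 32851 windows. Of the genes compared, 12 of 15 and 9 of 11 had a window. Capitals mark the matches, which are letters and not measured sites; Ifit3 lies at chr19:34583279-34583578 on the plus strand and B2m at chr2:122147437-122147736 on the plus strand.
Ifit3: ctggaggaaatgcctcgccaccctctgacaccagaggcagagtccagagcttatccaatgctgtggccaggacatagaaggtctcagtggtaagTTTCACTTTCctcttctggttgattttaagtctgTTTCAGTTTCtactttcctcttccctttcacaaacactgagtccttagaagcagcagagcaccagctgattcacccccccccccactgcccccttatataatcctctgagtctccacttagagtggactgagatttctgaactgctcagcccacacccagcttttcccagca
B2m: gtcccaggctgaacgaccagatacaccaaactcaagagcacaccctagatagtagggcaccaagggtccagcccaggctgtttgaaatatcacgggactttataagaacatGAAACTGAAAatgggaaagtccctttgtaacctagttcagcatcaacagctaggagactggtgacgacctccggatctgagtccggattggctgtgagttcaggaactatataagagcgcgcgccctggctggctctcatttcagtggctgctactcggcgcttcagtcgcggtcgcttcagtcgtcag

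Immediate early genes, which switch on within minutes of a stimulus, were higher in Adult HSC for 19 of 20 and lower for 0, with a median difference of 4.74. Myc was the remaining gene, with a difference of -0.82 (chosen after its values were seen). The AP-1 subunits Fos and Fosb had 6.03 on the Adult HSC array and -2.44 on the MSC array (354-fold higher) and 7.20 on the Adult HSC array and -3.37 on the MSC array (1520-fold higher). Atf3 had 5.38 on the Adult HSC array and -2.02 on the MSC array (169-fold higher), and Egr2 had 4.09 on the Adult HSC array and -1.95 on the MSC array (65.7-fold higher). The heat shock gene Hspa1a, on the same list, was 26.5-fold higher (also chosen after its values were seen). The summed level was 10.33 on Adult HSC and 6.46 on MSC. Across the sorted liver cells it was 7.74 at E11.5, 7.67 at E13.5, 8.89 at E14.5, 9.78 at E17.5 and 9.80 at P1, and on the cultured MEFs it was 6.57. The 6 arrays of sorted liver cells thus all had higher sums than MSC and MEF. The fetal and newborn livers were dissociated with collagenase, and beyond the vitamin A sort of the adult cells and the word purified for the MSCs the labels describe no isolation. The part of handling in the result was not tested.

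Cell cycle genes were lower in Adult HSC for 29 of 31 and higher for 0, with a median difference of -5.34. Those under 4-fold were the replication genes Mcm4 and Pcna, with differences of -1.81 and -1.31 (chosen after their values were seen). Bub1, a kinase of the spindle checkpoint, had -4.86 on the Adult HSC array and 2.27 on the MSC array (140-fold lower). Ube2c, which marks mitotic proteins for destruction, had -2.33 on the Adult HSC array and 4.65 on the MSC array (126-fold lower). Birc5, survivin, had -1.38 on the Adult HSC array and 5.60 on the MSC array (126-fold lower), and Rrm2, a subunit of ribonucleotide reductase, had -1.44 on the Adult HSC array and 5.49 on the MSC array (122-fold lower). Top2a, the topoisomerase of dividing cells, had -3.56 on the Adult HSC array and 2.79 on the MSC array (81.6-fold lower, chosen for its promoter after its values were seen). Of the 31 genes, 30 had their lowest level of the 8 arrays on Adult HSC and 24 their highest on MSC. The summed level was 5.16 on Adult HSC, 9.23 on MSC and 8.26 on MEF.

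The promoters of Top2a and the mitotic cyclin gene Ccnb2 are shown because they hold the 2 elements described for genes of late cell cycle, the CCAAT box and the cell cycle homology region (searched as CCAAT and TTTGAA, both strands). CCAAT was found in 24 of 28 windows of the cell cycle list, against 37.4% of all windows, and TTTGAA in 13 of 28, against 17.9%. The list's windows belong to 27 of its 31 genes. Capitals mark both motifs, which share no letters in these windows; Top2a lies at chr11:99024140-99024439 on the minus strand and Ccnb2 at chr9:70421505-70421804 on the minus strand. Ccnb2 had levels of -0.61 on the Adult HSC array and 4.27 on the MSC array (29.5-fold lower in Adult HSC), and it too was chosen for its promoter after its values were seen.
Top2a: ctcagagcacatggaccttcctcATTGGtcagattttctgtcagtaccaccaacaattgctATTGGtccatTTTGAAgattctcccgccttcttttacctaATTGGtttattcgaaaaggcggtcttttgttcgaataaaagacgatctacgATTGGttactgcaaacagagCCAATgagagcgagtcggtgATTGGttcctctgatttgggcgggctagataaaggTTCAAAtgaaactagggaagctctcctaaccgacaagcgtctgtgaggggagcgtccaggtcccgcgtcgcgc
Ccnb2: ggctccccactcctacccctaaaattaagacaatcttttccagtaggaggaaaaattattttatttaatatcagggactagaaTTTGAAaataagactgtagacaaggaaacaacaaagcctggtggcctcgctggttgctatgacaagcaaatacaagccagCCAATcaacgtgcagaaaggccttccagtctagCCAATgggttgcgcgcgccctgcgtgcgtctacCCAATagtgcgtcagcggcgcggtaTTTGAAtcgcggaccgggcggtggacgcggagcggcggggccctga

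Genes of amino acid synthesis and of the response to amino acid shortage were lower in Adult HSC for 9 of 12 (8 at the bound) and higher for 0. Asns, asparagine synthetase, had -5.48 on the Adult HSC array and 4.84 on the MSC array (1274-fold lower). Phgdh and Psat1, the first enzymes of serine synthesis, were 841-fold and 160-fold lower. Chac1, which degrades glutathione, had -4.02 on the Adult HSC array and 3.21 on the MSC array (151-fold lower), and Trib3, a pseudokinase, had -2.90 on the Adult HSC array and 2.64 on the MSC array (46.3-fold lower). Atf4, the factor that drives this response, had 6.95 on the Adult HSC array and 7.04 on the MSC array, a difference of -0.10 (chosen after its values were seen). Asns was at 4.56 on the MEF array and between 0.92 and 3.19 on the fetal and newborn liver arrays, so its low level was on Adult HSC alone among the 8. Chac1 was high on MSC and MEF, at 3.21 and 2.83, and at or below -4.02 on the other 6 arrays.

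The promoters of Asns and Chac1 hold the core of the amino acid response element, which is bound by ATF4, searched as TGATGNAA on both strands. It was found in 4 of 11 windows of this list, those of Asns, Chac1, Trib3 and Slc7a11, against 3.97% of all windows. 10 of the 12 genes had a window. Capitals mark the match; Asns lies at chr6:7693160-7693459 on the minus strand and Chac1 at chr2:119350992-119351291 on the plus strand.
Asns: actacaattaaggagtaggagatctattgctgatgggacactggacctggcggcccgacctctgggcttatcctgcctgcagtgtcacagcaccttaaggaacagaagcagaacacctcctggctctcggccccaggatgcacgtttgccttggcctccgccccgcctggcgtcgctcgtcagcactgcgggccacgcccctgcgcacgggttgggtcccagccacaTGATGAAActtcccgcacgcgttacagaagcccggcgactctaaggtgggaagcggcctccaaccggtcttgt
Chac1: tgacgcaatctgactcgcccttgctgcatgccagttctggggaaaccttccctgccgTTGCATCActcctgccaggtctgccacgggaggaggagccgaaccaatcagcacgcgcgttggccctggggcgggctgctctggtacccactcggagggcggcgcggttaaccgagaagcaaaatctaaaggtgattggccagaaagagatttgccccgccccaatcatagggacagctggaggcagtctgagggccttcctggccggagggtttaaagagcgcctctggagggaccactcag
The remaining searches were these. TGACGTCA, the cyclic AMP response element, was in 2 of 21 immediate early windows (Btg2 and Dusp1), against 1.79% of all. TCACNCCAC, a sterol response element, was in 1 of 14 windows of the sterol list (Hmgcs1), against 1.24%. The motif of the GATA family of factors, searched with the letters AGATAA, was in 3 of 14 windows of the liver mesenchyme factors (Hand2, Tcf21 and Nr1h4), against 11.2%. All 8 searches are given here.

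Glycolysis and hypoxia genes were lower in Adult HSC for 10 of 18 and higher for 1, with a median of -2.59. Pgk1, phosphoglycerate kinase, had 2.92 on the Adult HSC array and 7.17 on the MSC array (19.0-fold lower), and Bnip3, a mitochondrial hypoxia target, had 2.33 on the Adult HSC array and 5.50 on the MSC array (9.03-fold lower). Pdk1, which restrains pyruvate oxidation, was at least 42.4-fold lower. The higher one was Adm, the vasodilator peptide adrenomedullin, with 3.00 on the Adult HSC array and -2.71 on the MSC array (52.2-fold). Sterol and fatty acid synthesis genes were lower for 9 of 18 and higher for 1. Sqle, squalene epoxidase, had -2.84 on the Adult HSC array and 3.74 on the MSC array (95.4-fold lower). The higher one was Srebf1, a regulator of fatty acid synthesis (6.44-fold, chosen after its values were seen).

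Markers of other liver cells were read for the sake of the sort. Hepatocyte markers were higher in Adult HSC for 8 of 12 compared, 6 of them at the bound, and lower for 0. Alb, serum albumin, had -0.80 on the Adult HSC array and -7.55 on the MSC array, and on the E14.5 array it reached 7.31. Trf, transferrin, had 5.80 on the Adult HSC array and -7.33 on the MSC array (at least 4813-fold higher). The list's summed level was 5.91 in Adult HSC and -0.31 in MSC. Trf alone, at 5.80, makes up most of the Adult HSC sum. All 12 hepatocyte genes compared were well above background in Adult HSC. Among them were Cyp2e1 at -0.95, Ahsg at -1.46, Ambp at -2.25 and Fgb at -2.69 on the Adult HSC array. The remaining genes of the list, Hnf4a and Cps1, were not well above background on either array. Endothelial markers were higher for 13 of 15 and lower for 0, with summed levels of 8.12 in Adult HSC and 2.36 in MSC. Most of the Adult HSC sum is Plvap. Plvap, a protein of endothelial pores, had 7.86 on the Adult HSC array and -3.95 on the MSC array (3595-fold higher), and Clec4g, a sinusoidal lectin, had 3.72 on the Adult HSC array and -6.40 on the MSC array (at least 1112-fold higher). Cdh5, endothelial cadherin, was low at -3.82 on the Adult HSC array and -8.54 on the MSC array. Kupffer cell and leukocyte markers were higher for 7 of 13 and lower for 0, with summed levels of 3.42 in Adult HSC and 2.75 in MSC. Clec4f, a Kupffer cell lectin, had -2.89 on the Adult HSC array and -8.63 on the MSC array, and Ptprc (CD45), Timd4 and Lyz2 were not well above background on either array. Complement, MHC class I and interferon genes are also active in these cells, and the part of other liver cells in those results was not tested.

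On the MSC side, cholangiocyte markers were lower in Adult HSC for 4 of 4 compared and higher for 0. Portal fibroblast markers were lower for 4 of 9 and higher for 2, and mesothelial markers were lower for 2 of 3 and higher for 1. Over all genes compared, 13.9% were lower and 15.8% higher. The lists share genes, such as Krt19 (cholangiocyte and mesothelial) and Thy1 (portal fibroblast and marrow stromal). Krt19, a keratin of simple epithelia, stood at 0.69 in MSC (at least 89.4-fold lower in Adult HSC), and Msln, mesothelin, at 2.98 (at least 437-fold lower). Upk3b, Gpm6a and Lrrn4, other mesothelial genes, and the epithelial gene Epcam were not well above background on either array. Fbln2, a fibulin also made by fibroblasts, had -3.87 on the Adult HSC array and 6.87 on the MSC array (1710-fold lower). Their part in the result was not tested.

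The P1 and MEF arrays were then used to see how the called genes behave in another liver-against-elsewhere pair. Over the 15317 genes compared there, 46.8% had P1 above MEF, 9.58% were at least 4-fold higher in P1 and 5.62% at least 4-fold lower. Of the genes called higher in Adult HSC, 2127 could be read, of which 1634 (76.8%) had P1 above MEF and 612 (28.8%) were at least 4-fold higher. Of the genes called lower, 1868 could be read, of which 365 (19.5%) had P1 above MEF and 296 (15.8%) were at least 4-fold lower. Medians of P1 minus MEF were 0.93 for the higher and -0.79 for the lower genes. Across 13802 genes the differences of the 2 pairs correlated with r = 0.50. All 4 arrays lay on the same slide, and P1 cells were sorted while MEFs were cultured.

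**Figure D5:**
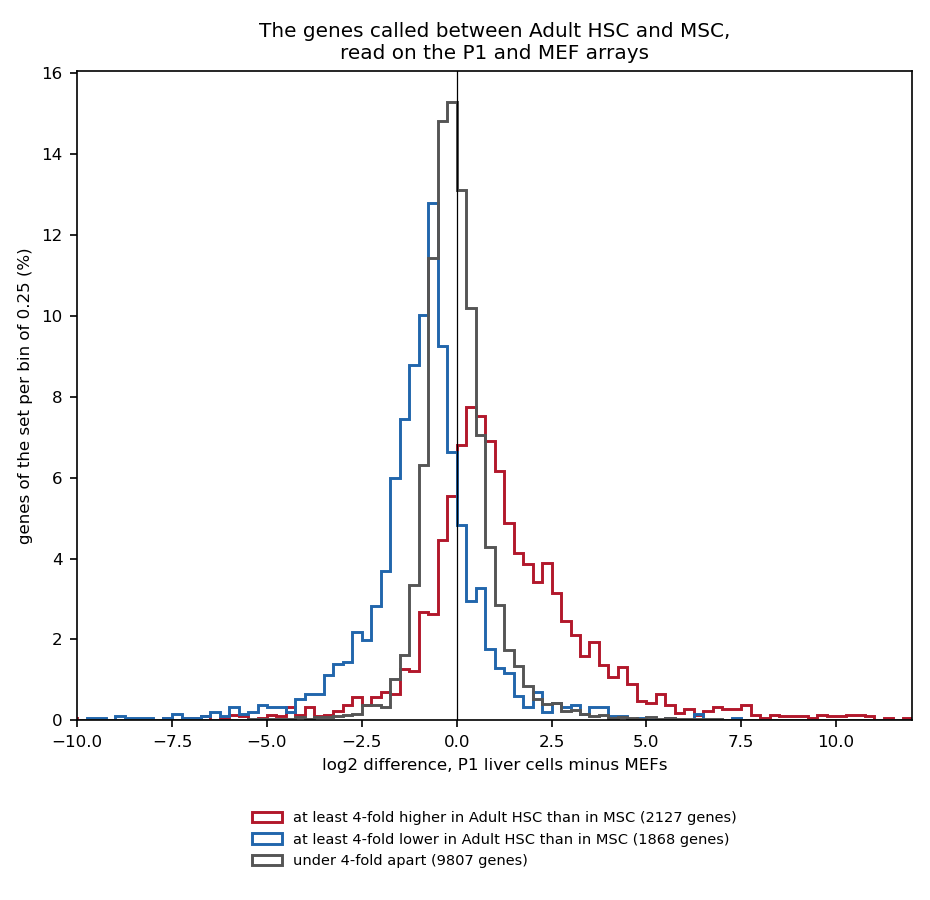
Curves give the share of genes (vertical axis, percent of the set) by log2 difference of P1 liver cells minus MEFs (horizontal axis, bins of 0.25) for genes called higher in Adult HSC than in MSC, called lower and called neither. The higher genes are shifted to the right, with a median of 0.93, and the lower genes to the left, with one of -0.79.

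The lists were read on the second pair as well. Stellate cell markers had P1 above MEF for 17 of 17, liver mesenchyme factors for 17 of 18 and immediate early genes for 20 of 20. Cell cycle genes had P1 below MEF for 31 of 31, amino acid genes for 12 of 12 and the Hox paralogs 6 to 13 for 15 of 16. Interferon genes had P1 above MEF for 4 of 15, against 14 of 15 called higher in Adult HSC than in MSC. MHC class I genes had P1 above MEF for 3 of 11, against 11 of 11 called higher in Adult HSC. H2-D1 stood at 1.78 on P1 and 2.08 on MEF, and Psmb8 at -0.41 on P1 and 0.50 on MEF. The contractile genes had P1 above MEF for 6 of 12, with Acta2 at 6.95 on P1 and 7.76 on MEF. The difference between the 2 pairs was not tested.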

How the data were processed

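Total RNA was labelled with Cy3 and hybridised to 8 one-colour Agilent arrays, 1 per group, per the labels. The deposited spot intensities were made with Agilent Feature Extraction 11.5.1.1, background-subtracted and spatially detrended, per the file headers. The authors' deposited log2 table holds values relative to the 75th percentile of each array, per the series design text, and served as an alternative. Flags for background, saturation and outliers, and spot types, are other columns of the deposited files.

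Here outlier spots and control spots were left out and spots of a probe averaged. Each level is log2 of that signal minus log2 of the array's 75th percentile over 39429 probes. Genes were named through transcript accessions found in RefSeq (67.4% of probes), with the probe of the highest mean over the 8 arrays for each gene. Prelp, Bglap, Tgfb1i1, Col6a3, Col12a1, Hspa1b, Mx1, Mx2, Hbb-b1 and Muc16 had no named probe. Promoter windows are from RefSeq, GRCm38.p6, and the array design uses mm9, so no coordinates were joined.

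With 1 array a group no test was run, and precision is limited by the number of arrays. The 37 gene lists and the members were chosen with earlier results of these data known. Named were the 15 highest and 15 lowest genes above background on both arrays, the 10 largest bounds a side, the 6 farthest members of each list (fewer in short lists), 10 anchor genes and all Hox genes, passing over predicted and clone names; some of these genes are not reported here. In all, 11 alternatives were tried. The analysis used Python 3.11.15 with numpy 2.4.6 and pandas 2.3.3, and limma 3.58.1 in R 4.3.3 for the normexp alternative.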

Additional observations from a re-analysis of the deposited data

How the results depend on the processing

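Of the 11 alternatives, normexp background correction with an offset of 50 and the demand that a gene be above background on both arrays moved the counts most. Genes at least 4-fold higher in Adult HSC numbered 1236 under normexp and 1410 with both arrays above background, and genes lower numbered 938 and 1204. The offset of 50 is added to every signal and so shrinks folds against dim signals, but its share of the drop was not tested. The second setting compares fewer genes. Under the other settings the counts stayed between 2073 and 2513 higher and between 1695 and 2375 lower. The share of calls that were higher was 53.2% in the values reported, 46.6% with the array median in place of the 75th percentile, 58.1% with the percentile over probes detected on all 8 arrays and 56.9% under normexp. The median of all genes moved by -0.24, 0.20 and 0.20 under these settings and by 0.32 with no filter, and medians near 0 changed sign: that of the marrow stromal list was positive under 2 settings, that of the TGF-beta list under 4 and that of the Wnt list under 4, the last reaching 2.48 with both arrays above background. The median of the osteogenic list was 0.26 with no filter and 0.84 with both arrays above background. That of the chondrogenic list was 0.29 under normexp and 0.51 with no filter. That of the Hox genes was 0.28 with no filter and 0.23 with both arrays above background, and that of the mesothelial list 0.64 and 2.19. Of the 37 list medians, another 18 moved by at least 1 (log2) under normexp, 10 with both arrays above background, 6 with no filter and 5 with dim values at a floor. The cause was not tested, beyond the offset of normexp and the fewer or more genes these settings compare. Under the 6 alternatives run for the P1 and MEF pair, which were chosen after seeing the data and leave out the filter, floor and probe choices, shares of called genes with P1 above MEF stayed between 67.4% and 81.7% for higher and between 9.63% and 22.6% for lower genes. Of 231 named genes with a value under normexp, 48 called ones fell under 4-fold, and no called named gene changed sign under an alternative that gave it a value. Uncalled genes near 0 did: Ly6a was 0.13 with the percentile over probes detected on all 8 arrays and 0.04 with quantile normalisation, and Slc4a1 was -0.08 with the array median and -0.06 with quantile normalisation. No paired analysis was possible because each group has 1 array. Genes not well above background on an array have only a bound there.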

Other observations

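The S100A family of small calcium-binding proteins had 2 of 12 genes at least 4-fold higher in Adult HSC (1 at the bound) and 5 lower, beside 15.8% higher and 13.9% lower over all genes compared. S100a4, a gene of motile fibroblasts, had -4.11 on the Adult HSC array and 6.30 on the MSC array (1357-fold lower), and S100a6 had -1.89 on the Adult HSC array and 8.07 on the MSC array (994-fold lower). Genes of neural and neural crest cells were higher for 5 of 16 and lower for 4. Beside Ngfr, Plxnc1, a semaphorin receptor, had 2.63 on the Adult HSC array and -6.74 on the MSC array, and Ncam1, a neural cell adhesion molecule, had -3.26 on the Adult HSC array and 3.25 on the MSC array. Among erythroid markers, 4 could be compared, with 1 higher and 1 lower. Tfrc, the transferrin receptor, had -3.95 on the Adult HSC array and 1.48 on the MSC array, and the alpha globin gene Hba-a1 had -5.46 on the Adult HSC array and -6.48 on the MSC array. The beta globin genes Hbb-bt and Hbb-bs were not well above background on either array.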
